A study of Mus musculus with 19 samples.

Results

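Tsc22d1, Pcp4l1 and Fam25c were 3 of 51826 gene entries measured in the livers of 19 female Balbc mice of 12 weeks, and were matched by their gene symbols. They were chosen by their measured levels, because their liver mRNA was lower at lactation day 10 than in nulliparous females, in mice of low and of high animal number alike, and higher again at involution day 6, where all mice had high numbers. The difference between the lactation mice (LAC) and the nulliparous mice (NUL), and that between the involution mice (ID6) and LAC, therefore chose the genes, and both are given here as values without a test. Levels are given as TPM, the share of each transcript after correction for its length, scaled to the same total in each mouse. All 3 were abundant enough to enter the fits.

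The study asked how the maternal liver changes through reproduction. It compared flash frozen liver from 7 NUL mice, which had never been pregnant, with that of 6 LAC and 6 ID6 mice. The LAC mice were nursing on day 10. The ID6 mice were 6 days past the start of involution, the regression after weaning that the study describes for the mammary gland and the liver. No mouse carried a transgene or received a drug, and the methods name 2 suppliers of the mice without saying which mouse came from which. Each library came from a separate animal.

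The animal numbers in the sample labels ran from 1 to 240 and fell into a low range, under 200, and a high range, 200 and above. The low range held 3 NUL and 3 LAC mice, and the high range held 4 NUL, 3 LAC and all 6 ID6 mice. The labels do not name these ranges as batches. For ID6 against the low range, stage and range cannot be told apart. Hepatocyte markers were abundant at every stage, with a summed level of 56775 to 149005 TPM over 6 genes, and 25.7 to 31.2% of all TPM lay in the top 10 genes. Of the 6 nerve cell markers, 4 were under the filter on low values in these livers.

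Tsc22d1 encodes a member of the TSC22 domain family, proteins with a leucine zipper that dimerize. It was first isolated as a transcript induced by transforming growth factor beta (TGF-beta), a signal that cells read through SMAD transcription factors and that restrains hepatocyte growth. TSC22 proteins also bind the pseudokinase NRBP1 and take part in WNK kinase signaling, which controls cell volume and ion transport. Pcp4l1 encodes a small protein with an IQ motif, related to Pcp4 (PEP-19), which binds calmodulin, the calcium sensor. Fam25c encodes a short protein of little known function.

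In the GRCm38 assembly, Tsc22d1 (ENSMUSG00000022010) lies on chromosome 14 from 76414961 to 76507765 on the plus strand and has 16 annotated transcripts, of which 10 are protein-coding. Their reads were summed into 1 value per mouse, so long and short forms of Tsc22d1 were not separated. Fam25c (ENSMUSG00000043681) lies on the same chromosome from 34351881 to 34355433 on the minus strand, and Pcp4l1 (ENSMUSG00000038370) on chromosome 1 from 171173262 to 171196268 on the minus strand. Each of these 2 genes has 1 annotated transcript.

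The sequences upstream of the start sites are shown because the 3 genes moved together between stages. They come from RefSeq windows on GRCm38.p6 that run from 250 bases before to 50 bases after a start site. Only the part before any annotated exon is printed, 5′ to 3′ on the strand of the gene, with capitals at motif matches. Tsc22d1 has 5 such windows, of which windows 1 and 4 are shown, being those with a motif match before the exon.
Tsc22d1 window 1, chr14:76414711-76414960, plus strand: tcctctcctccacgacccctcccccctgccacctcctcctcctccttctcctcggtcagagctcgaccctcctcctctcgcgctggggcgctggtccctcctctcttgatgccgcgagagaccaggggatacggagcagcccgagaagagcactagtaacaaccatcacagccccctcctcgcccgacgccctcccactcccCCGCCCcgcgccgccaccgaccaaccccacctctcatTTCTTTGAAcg
Tsc22d1 window 4, chr14:76503976-76504213, plus strand: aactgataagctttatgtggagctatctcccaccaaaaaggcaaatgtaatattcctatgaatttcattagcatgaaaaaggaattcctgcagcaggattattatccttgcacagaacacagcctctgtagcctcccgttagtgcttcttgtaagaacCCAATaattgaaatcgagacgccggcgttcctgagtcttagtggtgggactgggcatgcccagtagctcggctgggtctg
Pcp4l1, chr1:171196269-171196518, minus strand: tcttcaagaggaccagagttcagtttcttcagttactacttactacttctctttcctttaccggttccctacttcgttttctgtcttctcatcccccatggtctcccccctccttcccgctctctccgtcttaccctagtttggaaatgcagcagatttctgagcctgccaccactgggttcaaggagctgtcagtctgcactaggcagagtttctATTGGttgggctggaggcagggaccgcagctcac
Fam25c, chr14:34355434-34355643, minus strand: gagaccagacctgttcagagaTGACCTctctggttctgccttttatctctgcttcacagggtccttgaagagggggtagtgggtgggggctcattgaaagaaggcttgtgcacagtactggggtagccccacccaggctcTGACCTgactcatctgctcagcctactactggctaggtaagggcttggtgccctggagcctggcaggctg
The capitals in the first Tsc22d1 stretch mark a GC box and, 11 bases before the start site, a STAT5 palindrome (TTCNNNGAA). Those in the other Tsc22d1 stretch and in Pcp4l1 mark a CCAAT box, read on either strand, and those in Fam25c mark 2 copies of a nuclear receptor half-site (AGGTCA or its complement).

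Across 32851 mouse promoter windows of 300 bases, both strands read, the STAT5 palindrome was present in 8.30%, the half-site in 16.3%, the CCAAT box (CCAAT) in 37.4% and the GC box (GGGCGG) in 35.7%. A TATA box (TATAAA), present in 13.6% of windows, was found 29 bases before the start site in Fam25c, at the start site in Pcp4l1 and in the second Tsc22d1 window, each time outside the printed stretch. The second Tsc22d1 window also held an E-box (CACGTG), as 7.15% of windows did. No letters of a SMAD palindrome (GTCTAGAC), a FOXO element (GTAAACA), a C/EBP palindrome (TTGCGCAA), a cyclic AMP response element (TGACGTCA), a glucocorticoid receptor palindrome or an HNF1 palindrome were in these windows. None of the motifs was shared by all 3 genes, apart from the TATA box letters. The matches are descriptions of the letters, and no binding was measured.

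Tsc22d1 was lowest in lactation. In the low range it stood at 57.57, 82.74 and 122.07 TPM in the NUL mice and at 8.15, 13.16 and 13.75 TPM in the LAC mice. In the high range the 4 NUL mice had 66.06, 81.85, 95.48 and 137.53 TPM, and the 3 LAC mice 30.99, 32.02 and 33.7 TPM. Every LAC mouse was below every NUL mouse, and the LAC mice fell into a lower trio and an upper trio that matched the animal numbers. The 6 ID6 mice ran from 34.69 to 97.86 TPM with a median of 79.2 TPM, so that the lowest ID6 mouse lay just above the highest LAC mouse. The stage means were 91.9 ± 29.0 TPM (SD, n = 7) in NUL, 22.0 ± 11.5 TPM (n = 6) in LAC and 69.8 ± 25.0 TPM (n = 6) in ID6.

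Pcp4l1 followed a different course. The low-range NUL mice had 14.97, 17.66 and 23.85 TPM and the high-range NUL mice 36.55, 43.68, 45.72 and 52.78 TPM. The LAC mice stood at 8.48, 8.96 and 8.97 TPM in the low range and at 4.14, 6.57 and 7.59 TPM in the high range. Each LAC mouse was below each NUL mouse, and the ranges were reversed between the stages, since high-range mice had the higher values in NUL and the lower values in LAC. The 6 ID6 mice ran from 8.11 to 28.91 TPM with a median of 14.9 TPM, and the lowest of them was below 3 of the 6 LAC mice. The stage means were 33.6 ± 14.8 TPM (n = 7) in NUL, 7.45 ± 1.87 TPM (n = 6) in LAC and 15.9 ± 7.13 TPM (n = 6) in ID6.

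Fam25c had the highest stage means of the 3 genes on the TPM scale. Its NUL levels were 53.99, 120.42 and 224.82 TPM in the low range and 158.62, 220.04, 390.3 and 428.48 TPM in the high range. Its LAC levels were 7.83, 10.07 and 10.8 TPM in the low range and 85.16, 98.55 and 123.31 TPM in the high range. The 3 high-range LAC mice overlapped the low-range NUL mice, although each range on its own had all of its LAC mice below all of its NUL mice. The 6 ID6 mice ran from 209.76 to 357.13 TPM with a median of 274.61 TPM, above every LAC mouse. The stage means were 228 ± 137 TPM (n = 7) in NUL, 56.0 ± 52.3 TPM (n = 6) in LAC and 272 ± 51.0 TPM (n = 6) in ID6.

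**Figure D1:**
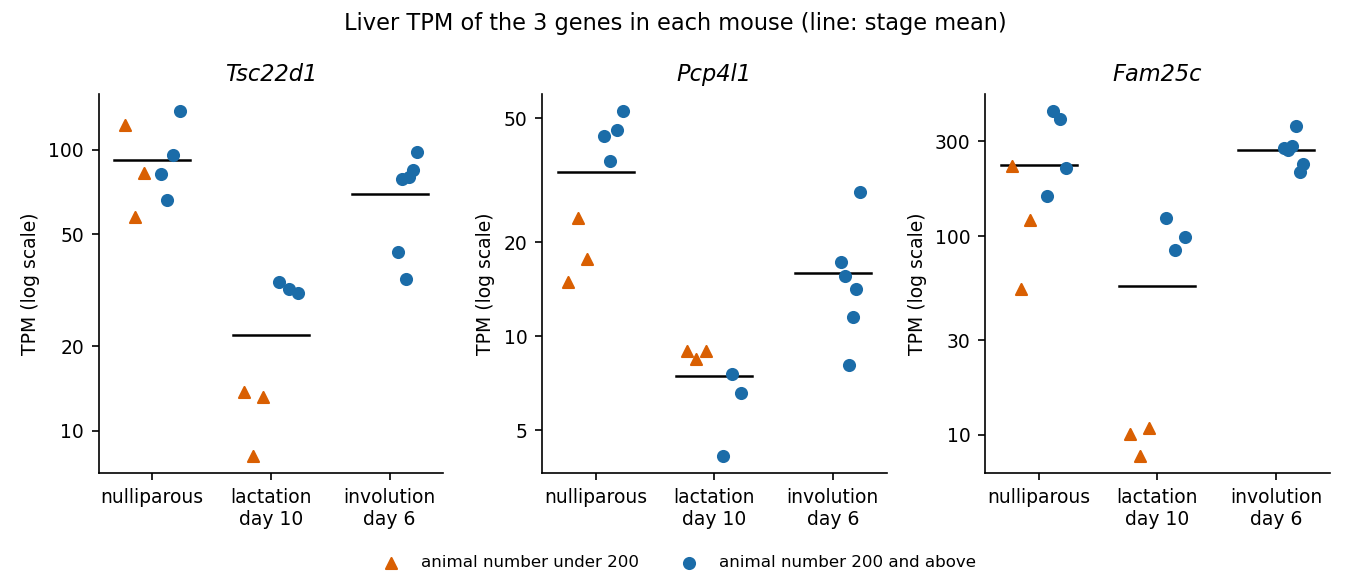
TPM (log axis) of Tsc22d1, Pcp4l1 and Fam25c in each of the 19 mice by stage, with triangles for animal numbers under 200, circles for 200 and above, and a black line at the stage mean. The low-range LAC mice of Tsc22d1 (8.15 to 13.75 TPM) and Fam25c (7.83 to 10.8 TPM) form a group below the high-range LAC mice, whereas for Pcp4l1 the high-range LAC mice are the lower ones.

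Over all mice, the mean TPM in NUL was 4.18 times that in LAC for Tsc22d1, 4.51 times for Pcp4l1 and 4.08 times for Fam25c. On the log2(TPM + 1) scale the LAC minus NUL difference was -2.13 for Tsc22d1, -1.94 for Pcp4l1 and -2.54 for Fam25c, which were the sixth, the seventh and the third lowest of 16230 genes. The median difference over all tested genes was -0.03. Of all tested genes, 2.29% had every LAC mouse below every NUL mouse, as Tsc22d1 and Pcp4l1 did, and 9.30% had every LAC mouse below every ID6 mouse, as Tsc22d1 and Fam25c did. Tsc22d1 alone of the 3 met both conditions, along with 1.49% of all tested genes, and nothing is read from these counts since the same contrasts chose the genes.

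The mean TPM in ID6 was 3.18 times that in LAC for Tsc22d1, 2.14 times for Pcp4l1 and 4.86 times for Fam25c. The log2(TPM + 1) differences were 1.71, 0.94 and 3.04. Among the high-range mice alone, where both stages are represented, the ratios were 2.16 for Tsc22d1, 2.61 for Pcp4l1 and 2.66 for Fam25c. The larger values for Tsc22d1 and Fam25c over all mice thus included the low-range LAC mice, which have no ID6 counterpart.

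The size of the lactation difference was not alike in the 2 ranges. Tsc22d1 was 7.48 times higher in NUL than in LAC in the low range and 2.95 times higher in the high range, and Fam25c was 13.9 times and 2.93 times higher. For Pcp4l1 the order was the opposite, with NUL 2.14 times higher than LAC in the low range and 7.33 times higher in the high range. The log2 differences in the low and the high range were -2.77 and -1.48 for Tsc22d1, -0.99 and -2.71 for Pcp4l1, and -3.45 and -1.44 for Fam25c. All 3 genes were therefore lower in LAC in either range, which is a property they were picked for.

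**Figure D2:**
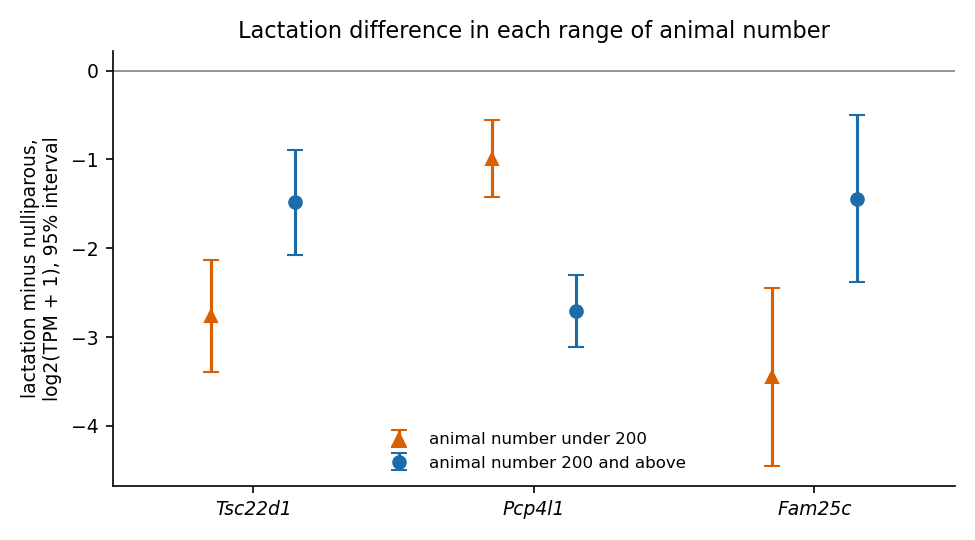
LAC minus NUL difference in log2(TPM + 1) for the 3 genes, with triangles for animal numbers under 200 (3 NUL, 3 LAC), circles for 200 and above (4 NUL, 3 LAC) and bars for 95% intervals. Tsc22d1 and Fam25c lie lower in the low range (-2.77 and -3.45) and Pcp4l1 lies lower in the high range (-2.71).

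The gap between the 2 lactation differences, high range minus low range, was -1.72 (SE 0.271) for Pcp4l1, 1.29 (SE 0.396) for Tsc22d1 and 2.01 (SE 0.628) for Fam25c in a stage by range fit over the 13 NUL and LAC mice. With 1 mouse left out the Pcp4l1 value stayed between -1.89 and -1.50. These gaps come from the values that chose the genes, so they are a description with no test, and nothing is read from the 0.0801% of all tested genes called for such a gap. Here and in the next comparisons, calls needed both an adjusted p below 0.05 and a log2 difference of 1 or more, the thresholds of the study.

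Fam25c stood higher in the high range with stage held constant. Its high minus low difference over the NUL and LAC mice was 2.21 (SE 0.410), against 0.74 for Tsc22d1 and 0.42 for Pcp4l1. These mice took part in the choice of the genes, so the values are a description with no test. Nothing is read from the 1.94% of tested genes called for such a difference.

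Within single stages, a division added after the data were seen, the range differences were uneven. Among LAC mice Fam25c was 10.7 times higher in the high range, a log2 difference of 3.28, and Tsc22d1 was 2.76 times higher (1.42). Pcp4l1 was 1.44 times higher in the low-range LAC mice (-0.50). Among NUL mice Pcp4l1 was 2.37 times higher in the high range (1.22), and the differences were 1.27 for Fam25c and 0.14 for Tsc22d1. The 3 genes were picked with the values in both ranges known, so these differences are a description with no test. Nothing is read from the 2.00% of genes called in LAC and the 2.05% called in NUL.

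Markers of some cell types moved with the ranges. Of 6 Kupffer cell and macrophage markers, the resident macrophages of the liver, 5 were higher in the high range, led by Cd5l (0.67) and Clec4f (0.63), where 16.5% of tested genes were higher and 9.11% lower at an adjusted p under 0.05. Of 6 hepatocyte markers 4 were higher, namely Ttr (0.83), Serpina1c (0.62), Alb (0.38) and Hnf4a (0.33), and with median-ratio scaling 2 of the 6 were past the threshold. With that scaling 11.7% of genes were higher and 12.2% lower. Without it, 2 of 7 endothelial and 1 of 5 red blood cell markers were higher. No cholangiocyte, stellate cell, lymphocyte, nerve cell, squamous or pancreatic acinar marker passed. Of 13 pericentral genes, expressed around the central vein, 6 were lower and 1 higher, and of 19 glucocorticoid-induced genes 5 were lower and 2 higher. The part of these shifts in the range differences of the 3 genes was not tested.

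The comparison of ID6 with NUL uses no LAC mouse, although its mice took part in both contrasts that chose the genes. It describes how near the 3 genes came to the nulliparous level. The return at involution was part of the choice, so the p-values and calls of this comparison are a description and decide nothing. The difference for Tsc22d1 was -0.43 on the log2 scale (ID6 minus NUL, 95% interval -1.10 to 0.25, adjusted p = 0.419 by limma over all 19 mice) and that for Fam25c was 0.50 (-0.78 to 1.78, adjusted p = 0.632). Neither passed, and the intervals leave room for a difference of 1 in 1 direction each. For Tsc22d1 the order of the stage means was NUL, ID6 and LAC, with NUL and ID6 within their spread over all mice, and for Fam25c it was ID6, NUL and LAC, again with the first pair within its spread. With range as a covariate the Tsc22d1 difference was -0.74 (95% interval -1.37 to -0.11, adjusted p = 0.260), larger in size and still not past the threshold.

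Pcp4l1 had the largest of the 3 differences in size, and the genes were not tested against each other. Its ID6 minus NUL difference was -0.996 on the log2 scale (SE 0.293, 95% interval -1.61 to -0.38). The adjusted p of 0.0586 by limma and the size of the difference both missed their thresholds, where 0.253% of tested genes were called. Among the high-range mice alone the difference was -1.52 (SE 0.263), with mean TPM 2.80 times higher in NUL. With range as a covariate it was -1.17 (adjusted p = 0.0619) and did not pass. All 6 ID6 mice lay below all 4 high-range NUL mice, but the share of all genes with such a separation was not counted. Those 4 mice also gave the high-range LAC minus NUL difference of Pcp4l1, which took part in the choice, so no test is read from that subset. A two-sided exact permutation test of the mean TPM over all NUL and ID6 mice gave p = 0.0268 (0.0804 adjusted over the 3 genes), again as a description. In that set 3 of 6 ID6 mice lay below every NUL mouse, which was not counted over all genes either. In the high range the NUL to ID6 ratios were 1.36 for Tsc22d1 and 1.10 for Fam25c.

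Leaving out single mice carried the Pcp4l1 difference past the threshold, namely the NUL mouse numbered 1 (difference -1.16) or the ID6 mouse with the highest Pcp4l1 value (-1.18). NUL mouse 1 had the lowest Pcp4l1 value of its stage and the highest summed level of squamous and gallbladder epithelium markers, 188.06 TPM against a stage median of 0.37 TPM. The next mouse for these markers, an ID6 mouse, had 19.07 TPM. The part of that tissue in the values was not tested.

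**Figure D3:**
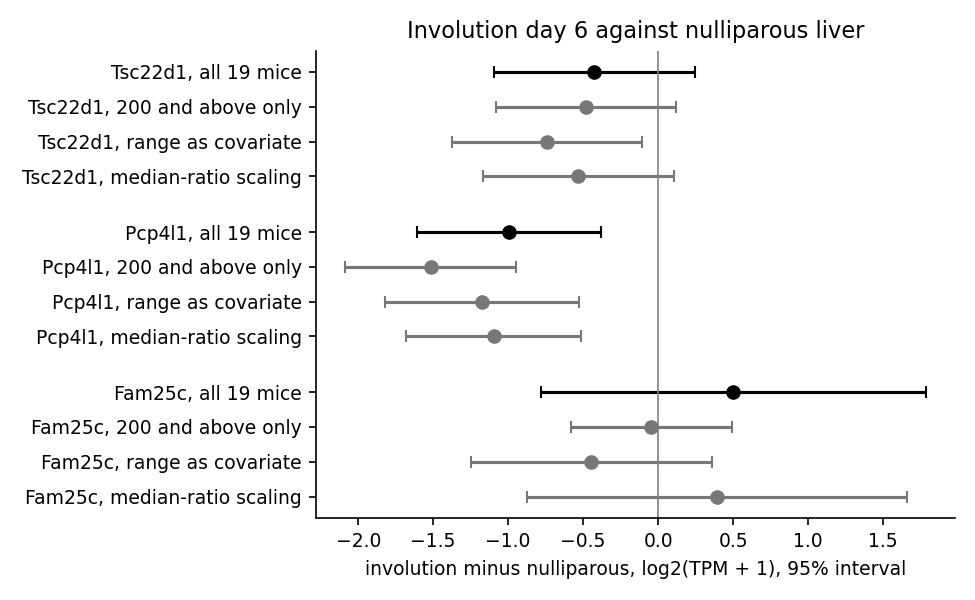
ID6 minus NUL difference in log2(TPM + 1) with its 95% interval for each gene, over all 19 mice (black) and under 3 alternatives (grey). Pcp4l1 lies below 0 in each (-0.996 over all mice, -1.52 with high-range mice only), and Fam25c changes sign with the mice used (0.50 and -0.04).

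The other TSC22 domain genes did not share the course of Tsc22d1. Tsc22d4, a family member with a role in liver lipid metabolism, rose from 4.72 ± 0.698 TPM (n = 7) in NUL to 9.32 ± 1.96 TPM (n = 6) in LAC, a log2 difference of 0.84 (adjusted p = 4.67e-04), and was 0.60 above NUL in ID6 (7.77 ± 1.65 TPM, adjusted p = 0.0178). Its ID6 difference missed the threshold among high-range mice (0.49, adjusted p = 0.198). Tsc22d3, which encodes the glucocorticoid-induced leucine zipper GILZ, had 50.9 ± 21.4 TPM in NUL and 48.7 ± 7.74 TPM in LAC (0.04, adjusted p = 0.957). Tsc22d2 had 3.77 ± 1.27 TPM and 3.79 ± 0.671 TPM (0.03, adjusted p = 0.930). The summed TPM of the 4 genes went from a median of 145 in NUL to 84.6 in LAC and 138 in ID6.

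NRBP and WNK genes, the partners of TSC22 proteins, gave few calls. Of 8 listed genes 6 were tested, and none passed between NUL and LAC, where 2.72% of all tested genes were higher and 6.49% lower at an adjusted p under 0.05. Nrbp1 was higher in ID6 than in LAC (0.34, adjusted p = 0.0122), where 18.1% of all genes were higher and 4.73% lower. Nrbp2 was higher in ID6 than in NUL (0.41, adjusted p = 0.0463), where 3.44% were higher and 0.912% lower.

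Part of the genes downstream of TGF-beta and related ligands were lower in lactation. Of 20 tested SMADs and targets, 6 were lower in LAC than in NUL and none higher, where 6.49% of all tested genes were lower and 2.72% higher, and the list median was -0.29 against -0.03 over all genes. They were Id3 (-1.31, adjusted p = 0.0370), Id1 (-1.28, adjusted p = 0.0199) and Id2 (-1.02, adjusted p = 0.00434), which encode inhibitors of DNA binding, the inhibitory SMAD Smad7 (-1.02, adjusted p = 0.0399), the matrix gene Tgfbi (-0.89, adjusted p = 1.28e-04) and the decoy receptor gene Bambi (-0.29, adjusted p = 0.00231). From LAC to ID6, 8 of the 20 rose and none fell, led by Id3 (1.58), Smad7 (1.45), Id2 (1.18) and Id1 (0.97), with a list median of 0.38 against 0.10, where 18.1% of all tested genes were higher. None differed between ID6 and NUL at that threshold.

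With fewer mice fewer members passed. Among high-range mice 2 of the 20 were lower in LAC (Tgfbi, -1.04, and Smad6, -0.55), where 4.47% of all genes were lower, and 3 were higher in ID6 than in LAC, where 10.6% were higher. The list median for LAC against NUL was -0.39 in these mice, with Id1 at -1.08, Id3 at -0.88 and Smad7 at -0.80. With median-ratio scaling 6 were lower in LAC and 5 higher in ID6. That scaling changed the whole-table shares as well, to 4.58% higher and 4.53% lower for LAC against NUL, 8.03% and 8.33% for ID6 against LAC, and 1.02% and 1.32% for ID6 against NUL. The median over all genes for ID6 against LAC went from 0.0993 to -0.00492.

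Among 18 ligands and receptors, Inhbe, which encodes the inhibin beta E subunit made by hepatocytes, was lower in LAC (-1.22, adjusted p = 0.00608) and Tgfbr2, the type II TGF-beta receptor gene, was higher (0.65, adjusted p = 0.0167). Tgfbr2 did not pass among high-range mice (0.26, adjusted p = 0.485). From LAC to ID6, 6 rose and none fell, where 18.1% of all tested genes were higher, led by Inhbc (1.48), Inhbe (0.94), Tgfb1 (0.75) and Eng (0.49). Inhbc, another inhibin subunit gene of hepatocytes, was also 1.65 higher in the high range of animal numbers (adjusted p = 4.34e-06), so its range shift exceeded its stage shift of -0.71 (LAC minus NUL, adjusted p = 0.314).

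**Figure D4:**
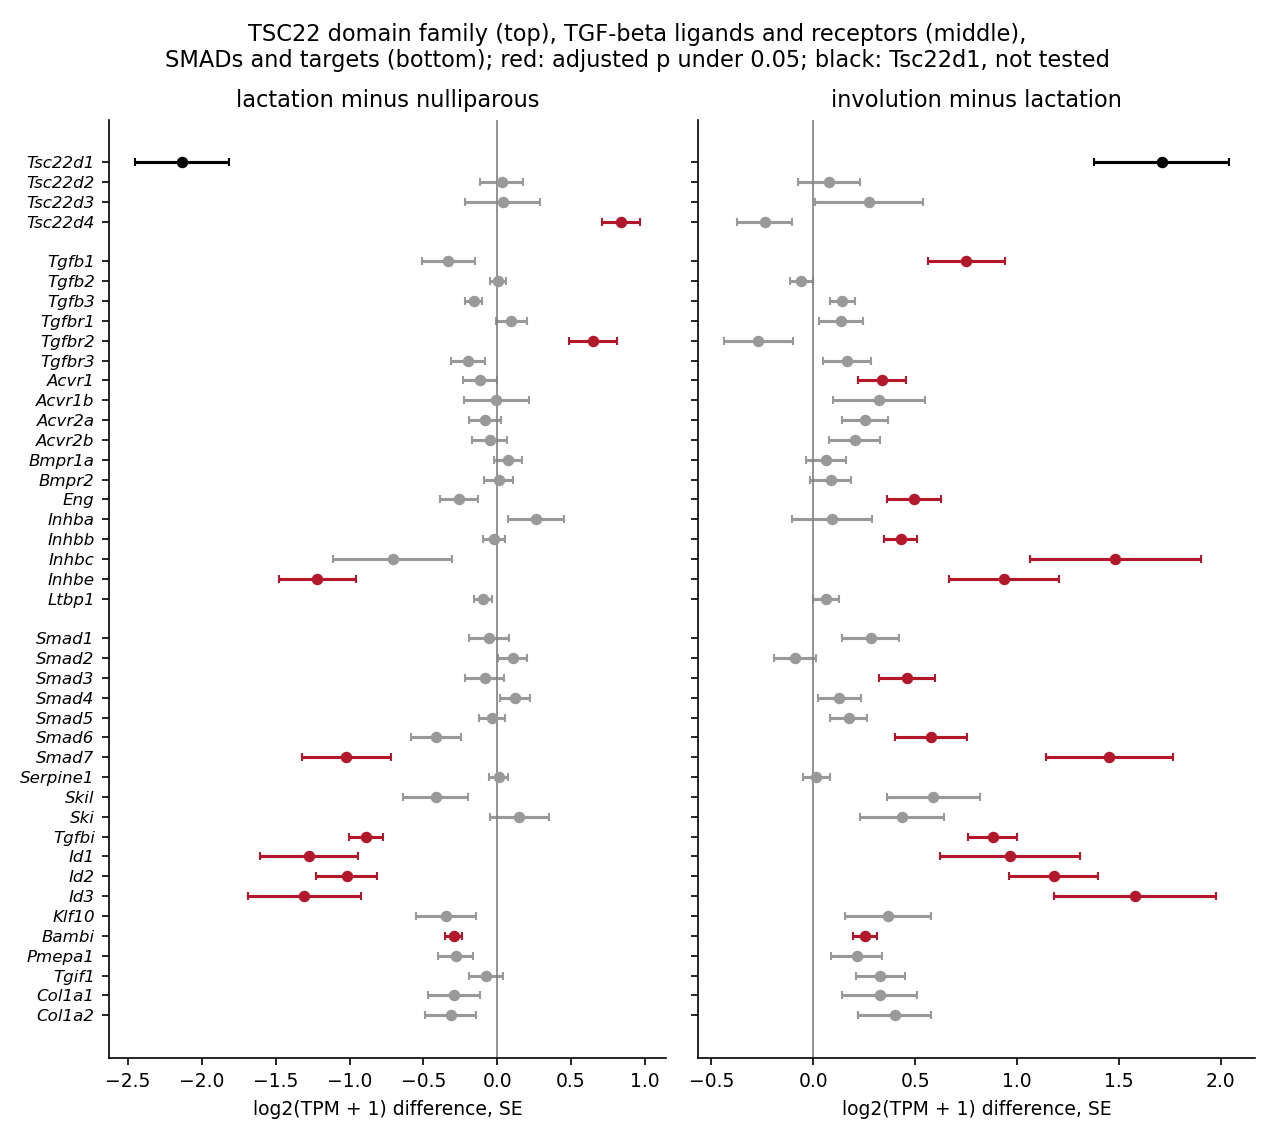
Log2(TPM + 1) differences with SE for the TSC22 domain family (top), TGF-beta ligands and receptors (middle) and SMADs and target genes (bottom), LAC minus NUL on the left and ID6 minus LAC on the right. Red points had an adjusted p under 0.05, and Tsc22d1, black, was chosen on these comparisons and was not tested; Id3, Id1, Id2 and Smad7 lie between -1.31 and -1.02 on the left and between 0.97 and 1.58 on the right.

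Kupffer cell markers were lower in lactation and highest in involution. Of 6 Kupffer cell markers 5 were lower in LAC than in NUL, led by Vsig4 (-0.75) and Cd5l (-0.68), all 6 were higher in ID6 than in LAC and all 6 were higher in ID6 than in NUL. The shares of all tested genes were 6.49% lower, 18.1% higher and 3.44% higher in these comparisons. Their summed level was 157.88 to 302.06 TPM in NUL, 103.33 to 216.61 TPM in LAC and 350.42 to 495.16 TPM in ID6. Among high-range mice the 3 counts were 5, 6 and 2, against 4.47%, 10.6% and 0.511% of all genes, and with median-ratio scaling they were 3, 6 and 5, against 4.53%, 8.03% and 1.02%. In whole liver, fewer cells of a type and less RNA per cell cannot be told apart. The part of these cells in the values of the 3 genes was not tested.

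Other cell types gave counts that are set against 6.49% of all genes lower in LAC than in NUL, and 18.1% higher and 4.73% lower in ID6 than in LAC. Of 7 stellate cell and fibroblast markers 3 were lower in LAC (Col3a1, Reln and Dcn, -0.80 to -0.53), and 2 rose again in ID6. Of 7 endothelial markers Clec4g was lower in LAC (-0.53) and 4 were higher in ID6 than in LAC. Of 5 lymphocyte markers 2 were lower in LAC and 5 higher in ID6. All 5 red blood cell genes, the hemoglobin genes and Alas2, were lower in ID6 than in LAC (-3.06 to -1.04) and lower than in NUL, with summed levels of 1144 to 2407 TPM in NUL, 1331 to 3336 TPM in LAC and 196.51 to 847.15 TPM in ID6. Of 5 pancreatic acinar genes Cela1, an elastase gene, was lower in LAC (-1.74) and higher again in ID6 (1.15). Spp1 was the single cholangiocyte marker that passed (-0.71 in LAC and 0.59 in ID6). No squamous or nerve cell marker passed in either comparison.

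The relatives of Pcp4l1 were near 0 in liver. Pcp4 was at 0.0886 ± 0.119 TPM (n = 7) in NUL and Nrgn, which encodes the calmodulin-binding neurogranin, at 0.467 ± 0.1001 TPM, and neither passed in any stage comparison. Gap43 was under the filter. Pcp4l1 was thus the only 1 of these 4 genes above 1 TPM on average. Of 14 tested calmodulin, calmodulin kinase and calcineurin genes, Camk1 was lower in LAC (-0.37, adjusted p = 0.00485) and higher in ID6 than in LAC (0.62, adjusted p = 3.15e-05), as was Calm2 (0.30, adjusted p = 0.00184), 2 of 14 where 18.1% of all genes were higher. Camkk2 (0.70, adjusted p = 0.0318) and Camk1d (0.54, adjusted p = 0.0308) were higher in ID6 than in NUL, where 3.44% of all genes were. Calm2 and Calm3, which encode calmodulin itself, stood at 144 ± 7.32 and 39.3 ± 5.49 TPM in NUL and at 126 ± 13.9 and 40.0 ± 4.77 TPM in LAC, and neither passed between these stages.

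Hormone response genes were read beside the 3 genes, against 6.49% of all genes lower and 2.72% higher in LAC than in NUL, and 18.1% higher and 4.73% lower in ID6 than in LAC. Of 14 prolactin and growth hormone signaling genes, 4 were lower in LAC and none higher: Stat5a (-0.55), Stat5b (-0.43), Ghr, the growth hormone receptor gene (-0.40), and Igf1 (-0.25). From LAC to ID6, 6 were higher, led by Ghr (0.63), Stat5b (0.55) and Stat5a (0.53). Of 19 glucocorticoid-induced genes, Mt1 (1.34) and Gadd45b (1.33) were higher in LAC and none lower over all mice. Among high-range mice alone none was higher and 2 were lower, with a list median of -0.29, where 2.61% of all genes were higher and 4.47% lower. From LAC to ID6, over all mice, Mt2 (-2.52), Mt1 (-2.33) and Gadd45b (-1.56) fell while Sgk1 (1.08) and Nr3c1 (0.30) rose.

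Metabolic, clock and zonation lists gave mixed directions, and the same shares of all genes apply to their counts, so that 2 of 16 higher in ID6 than in LAC, for example, is below the 18.1% of the whole table. Of 16 HDL and cholesterol transport genes, Pltp (1.71) and Abca1 (0.47) were among those higher in LAC and Lipc (-0.48) and Abcg8 (-0.47) lower, and from LAC to ID6 7 rose and 4 fell. Of 16 fasting and insulin responsive genes none passed between NUL and LAC and 2 rose from LAC to ID6, G6pc (0.99) and Srebf1 (0.91). Of 14 core clock genes Per3 was higher in LAC (0.39). Of 13 pericentral genes, expressed around the central vein, 5 were lower in LAC, led by Cyp2e1 (-1.18) and Axin2 (-0.93), and of 13 periportal genes Alb (0.86), Cyp2f2 (0.58) and Hsd17b13 (0.38) were higher.

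Genes whose levels ran most like each of the 3 over the 19 mice were ranked by Pearson r of log2(TPM + 1), leaving out genes whose mean was below 1 TPM. The mice share stages and ranges, so these values describe the table and carry no test. Those of Tsc22d1 were Lect2 (r = 0.934), a secreted hepatokine gene, Aox3 (0.926), Ssu72 (0.909), Impa1 (0.908) and Atp6v0e2 (0.901). Lect2 went from 386 ± 49.6 TPM in NUL to 121 ± 35.3 TPM in LAC and 351 ± 56.1 TPM in ID6, and its LAC means were 91.0 TPM in the low and 151 TPM in the high range, the same order as for Tsc22d1.

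Those of Fam25c were Serpina11 (r = 0.957), Apof (0.944), Lmo2 (0.937), Mup3 (0.936) and F11 (0.931). Mup3, a major urinary protein gene, had LAC means of 1036 TPM in the low and 5100 TPM in the high range, a split like that of Fam25c. Serpina11 had 65.9 and 188.8 TPM there. Values of Mup genes are uncertain because near-identical paralogs share reads.

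Those of Pcp4l1 were Mamdc2 (r = 0.905), Mgll (0.896), which encodes monoglyceride lipase, Mmd (0.853), Ltbp4 (0.835), which encodes a latent TGF-beta binding protein, and Ankrd55 (0.834). Mgll went from 64.5 ± 5.06 TPM in NUL to 46.1 ± 0.809 TPM in LAC and 54.9 ± 8.44 TPM in ID6, in the same order of stages as Pcp4l1. The 3 lists of 5 shared no gene.

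Deviations of each mouse from the mean of its stage and range gave other neighbors. The first 5 were Swsap1 (r = 0.904), Qrich1, Adgrl2, Zfp414 and Champ1 for Tsc22d1, Med23 (0.832), Gadd45b, Slc39a9, Polr1d and Lman2l for Pcp4l1, and S100a9 (0.838), Ptpn18, Gm28577, Igf1 and Sema6b for Fam25c.

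The 3 genes did not vary as 1 group among mice of the same stage and range. Pcp4l1 and Fam25c deviated in opposite directions (Pearson r = -0.467 over 19 mice, permutation p = 0.0163, 0.0490 adjusted over 3 pairs). Spearman's rho was -0.581 (permutation p = 0.0194, adjusted 0.0581). Without the 2 mice whose Pcp4l1 deviations were farthest from their median, r was -0.643, but mice far out for Fam25c were not left out. Within the 6 ID6 mice r was -0.488 (exact p = 0.300). Tsc22d1 and Pcp4l1 had r = 0.348 (permutation p = 0.285, adjusted 0.428, with rho = 0.0982, permutation p = 0.728) and, without the 2 mice farthest out for Tsc22d1, r = 0.174. Tsc22d1 and Fam25c had r = 0.198 (permutation p = 0.517, adjusted 0.517; rho = 0.0632, permutation p = 0.830) and 0.296 without them.

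**Figure D5:**
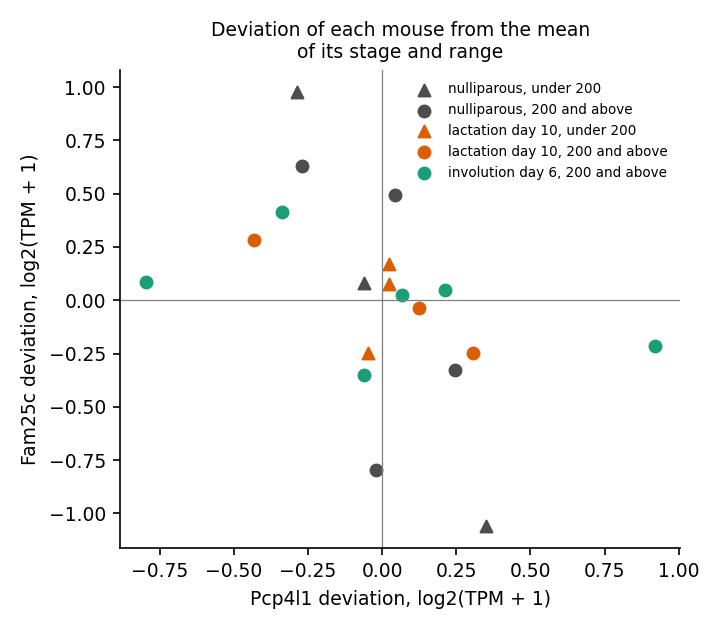
Deviation of Fam25c against that of Pcp4l1 in log2(TPM + 1), each point 1 of the 19 mice, relative to the mean of its stage and range, with color for stage and shape for range. Mice above their group mean for Pcp4l1 tend to lie below it for Fam25c (r = -0.467), with most of the spread in the NUL and ID6 mice.

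Genes next to the 3 on the chromosome were read to see whether whole regions moved. None of the tested neighbors named here passed between NUL and LAC. Beside Fam25c, Glud1, the glutamate dehydrogenase gene that lies 6616 bases away, went from 667 ± 313 TPM in NUL to 497 ± 170 TPM in LAC and 949 ± 107 TPM in ID6, with an ID6 minus LAC difference of 0.996 (adjusted p = 0.0109). Shld2, listed as Fam35a (0.96, adjusted p = 0.00578), and Mmrn2 (0.68, adjusted p = 0.00272) were also higher in ID6 than in LAC, and Sncg was not called (0.15, adjusted p = 0.323). Beside Tsc22d1, Lacc1 was lower in ID6 than in LAC (-0.42, adjusted p = 0.0422), and Gpalpp1 and Nufip1 did not pass, while Serp2 was under the filter. Beside Pcp4l1, Sdhc, Tomm40l and Nr1i3, which encodes the nuclear receptor CAR, did not pass. Higher levels in ID6 than in LAC were thus found for 3 neighbors, all beside Fam25c, where 18.1% of all tested genes were higher. Glud1 (0.95, adjusted p = 6.996e-04) and Shld2 (0.81, adjusted p = 4.45e-04) were also higher in the high range of animal numbers, which holds every ID6 mouse and 3 of the 6 LAC mice. The part of range in their stage difference was not tested.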

How the data were processed

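Liver poly(A) RNA was sequenced with paired-end reads. The authors aligned the reads to GRCm38 (aligner not given in the sources used here), quantified genes with RSEM 1.3.1 and Ensembl annotation, and deposited TPM values, 1 per gene and mouse. TPM keep no depth, so precision is known only from the spread between mice. The authors' test on counts was not repeated. From the TPM, log2(TPM + 1) was computed, and the 16230 genes averaging 0.1 TPM or more were fitted with limma-trend (limma 3.58.1, R 4.3.3), 1 mean per stage over 19 mice, with Benjamini-Hochberg adjustment over all genes. Range fits used the 13 NUL and LAC mice. The range and the stage by range values of the 3 genes are given without a test because these mice took part in their choice. For the same reason the p-values of the 3 genes for ID6 against NUL are a description. Fold differences on this scale understate changes of low genes. Relations used 100000 permutations within stage and range (Python 3.11.15, scipy 1.17.1). The code was tested on simulated data.

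The 3 genes and all gene lists were chosen with earlier results of these data known. Named genes were family members, up to 4 called genes per list with the largest differences, the 5 most alike genes and the 2 nearest genes on each side, of which some are not reported here. Members of lists named beyond these were chosen after their values were seen. Alternatives were pseudocounts of 0.1 and 0.5 TPM, other filters, median-ratio scaling, range as a covariate, fewer mice and each mouse left out. Positions are from GENCODE, and sequences from RefSeq (GRCm38.p6), which matched all 3 genes.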

Additional observations from a re-analysis of the deposited data

Results flagged for a closer look

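The difference between ranges of animal number in the LAC minus NUL difference of Pcp4l1 was -1.72 on the log2 scale. It was flagged by a rule for contrasts that differ between groups, with -0.99 in the low and -2.71 in the high range. Fam25c (2.01) and Tsc22d1 (1.29) had gaps as well, so unequal size was not particular to Pcp4l1. The genes were picked on these values, so the difference is a description and carries no test. Pcp4l1 was lower in every LAC mouse than in every NUL mouse of its range.

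Tsc22d2 in a high-range NUL mouse was 6.33 TPM, far from the next highest NUL mouse at 4.03 TPM, a gap that made up 0.597 of the spread of that stage. Nrgn in LAC mouse 36 was 0.65 TPM, with the next LAC mouse at 0.41 TPM, or 0.667 of the spread. These came from 24 groups of mice over 8 genes, and chance alone marks about 1 in 20 groups. None of the 3 genes had such a mouse within a stage.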

How the results depend on the processing

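No paired analysis was possible because the stages share no animal numbers. Changes of side of the threshold were mostly those of Pcp4l1. The size of its difference between ranges, a description with no test, changed little. It was -1.82 with a pseudocount of 0.1 TPM, -1.715 (the main value) without a filter, -1.62 with median-ratio scaling, and -1.89 to -1.50 with 1 mouse left out. Its ID6 minus NUL difference, where passing is a description since these mice took part in the choice, passed with median-ratio scaling (-1.10). It did not pass with range as a covariate (-1.17, adjusted p = 0.0619) or with only NUL and ID6 mice in the fit (adjusted p = 0.0928). With a filter at a mean of 1 TPM the adjusted p by limma was 0.0466, but the difference stayed under 1 in size. With high-range mice it was -1.52, given without a test, and it ran from -1.18 to -0.84 with 1 mouse left out. The ID6 minus NUL difference of Fam25c reversed with range as a covariate (-0.45), where it did not pass, and with high-range mice (-0.0449). With high-range mice the LAC minus NUL difference was -1.48 for Tsc22d1 and -2.71 for Pcp4l1, and the ID6 minus LAC difference was 0.999 for Tsc22d1 and 1.40 for Fam25c. The cause was not tested. Within single stages, an alternative added after seeing the data, the range differences are a description with no test. That of Pcp4l1 was 1.22 in NUL and reversed in LAC (-0.50), that of Tsc22d1 was 1.42 in LAC, and that of Fam25c was 1.27 in NUL. Within ID6 mice the relation of Tsc22d1 and Fam25c reversed (r = -0.295) and that of Pcp4l1 and Fam25c (-0.488) did not pass, with 6 mice. Genes called between ID6 and NUL numbered 41, 95 with a pseudocount of 0.1 TPM and 25 with high-range mice, genes passing between NUL and LAC 2548 with range as a covariate against 1494, and those between LAC and ID6 2294 with high-range mice against 3703. Among the alternatives set out at the start, 409 values kept their direction and their side of the threshold or moved by less than the spread between mice. Of the rest, 14 lost a call, 4 gained one, 8 moved further and 3 reversed. Most of the 14 were of the Pcp4l1 gap between ranges, which changed its side of the threshold for 10 of the 13 mice left out in turn. No test is read from that gap. Many of the 409 could not change, so the count does not measure robustness. Leaving out a mouse of 1 stage cannot move the difference between the other stages, and a filter cannot move a log2 difference. No depth is known.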
